A study of Homo sapiens with 6 samples.

Results

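In the mesothelioma cell line NCI-H226, 110 genes stood apart in both cultures numbered replicate 1, the spheroid and the monolayer, from the other two cultures of the same kind. They were chosen by their microarray signals from 8956 genes that had 1 gene symbol and a signal of 100 or more on at least 1 array. A gene was taken if, on the log2 scale with each array centred on its median, its level in monolayer 1 differed by over 2 from the mean of monolayers 2 and 3, and its level in spheroid 1 differed by over 1, in the same direction, from the mean of spheroids 2 and 3. By this rule 65 genes were higher and 45 lower in both replicate 1 cultures, which together is 1.23% of the genes with signal. HMGA2 and MME are among the lower genes.

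The study compared spheroids of NCI-H226 cells with monolayers of the same cells, 3 cultures each, with total RNA of each culture on 1 Affymetrix U133 Plus 2.0 array. For the spheroids, each well of a plate coated against attachment, without any added matrix, received 10000 cells, which were spun together and kept for 24 hours. The monolayers were the adherent cultures from which the line is maintained, in a medium with serum, and the medium of the spheroids is not given in the sources used here. The labels name no drug or genetic change in either group. NCI-H226 is 1 established cell line, so every culture comes from 1 tumor, and the labels number the cultures of each kind as biological replicates without saying whether cultures of the same number shared a passage, a day or a batch of reagents.

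Signals are linear values per probe set, the group of short probes that reads 1 transcript, and 1 gene can have several probe sets. Levels are therefore compared between arrays for 1 probe set, never between genes. HMGA2 is a chromatin protein that bends DNA at AT-rich stretches. It is abundant in embryonic tissue, absent from most adult tissue, and comes back in many tumors, where loss of the let-7 microRNAs that target its transcript is 1 known way. MME, also called neprilysin or CD10, is a zinc peptidase of the cell surface that degrades small signaling peptides. Mesothelial cells, the lining cells of the pleura from which mesothelioma arises, are themselves marked by keratins, calretinin, mesothelin and the transcription factor WT1.

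The size of the shift differed between the kinds of culture. Over the 65 higher genes the median shift was 1.53 in spheroid 1 and 2.83 in monolayer 1 on the log2 scale, and over the 45 lower genes it was -1.35 in spheroid 1 and -2.93 in monolayer 1. The shift was smaller in spheroid 1 than in monolayer 1 for 108 of the 110 genes, all but NRXN3 and BST2, but the rule itself asked for less in spheroids. Replicates 2 and 3 lay close together by comparison. The median gap between them was 0.31 in spheroids and 0.41 in monolayers, and in 109 genes, all but NPTX1, each gap was under the shift of its own kind of culture. For ISM2 and EPS8L1 the gap in monolayers was wide, at 2.40 and 2.86, and exceeded their spheroid shifts of 1.13 and 1.11, as it did for ITLN1 and FGF18. For 101 of the 110 genes both replicate 1 arrays lay outside the range of the other 4 arrays, which was so for 17.9% of the genes with signal. The rule chose the genes by these same values, so they are given as a description only.

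**Figure D1:**
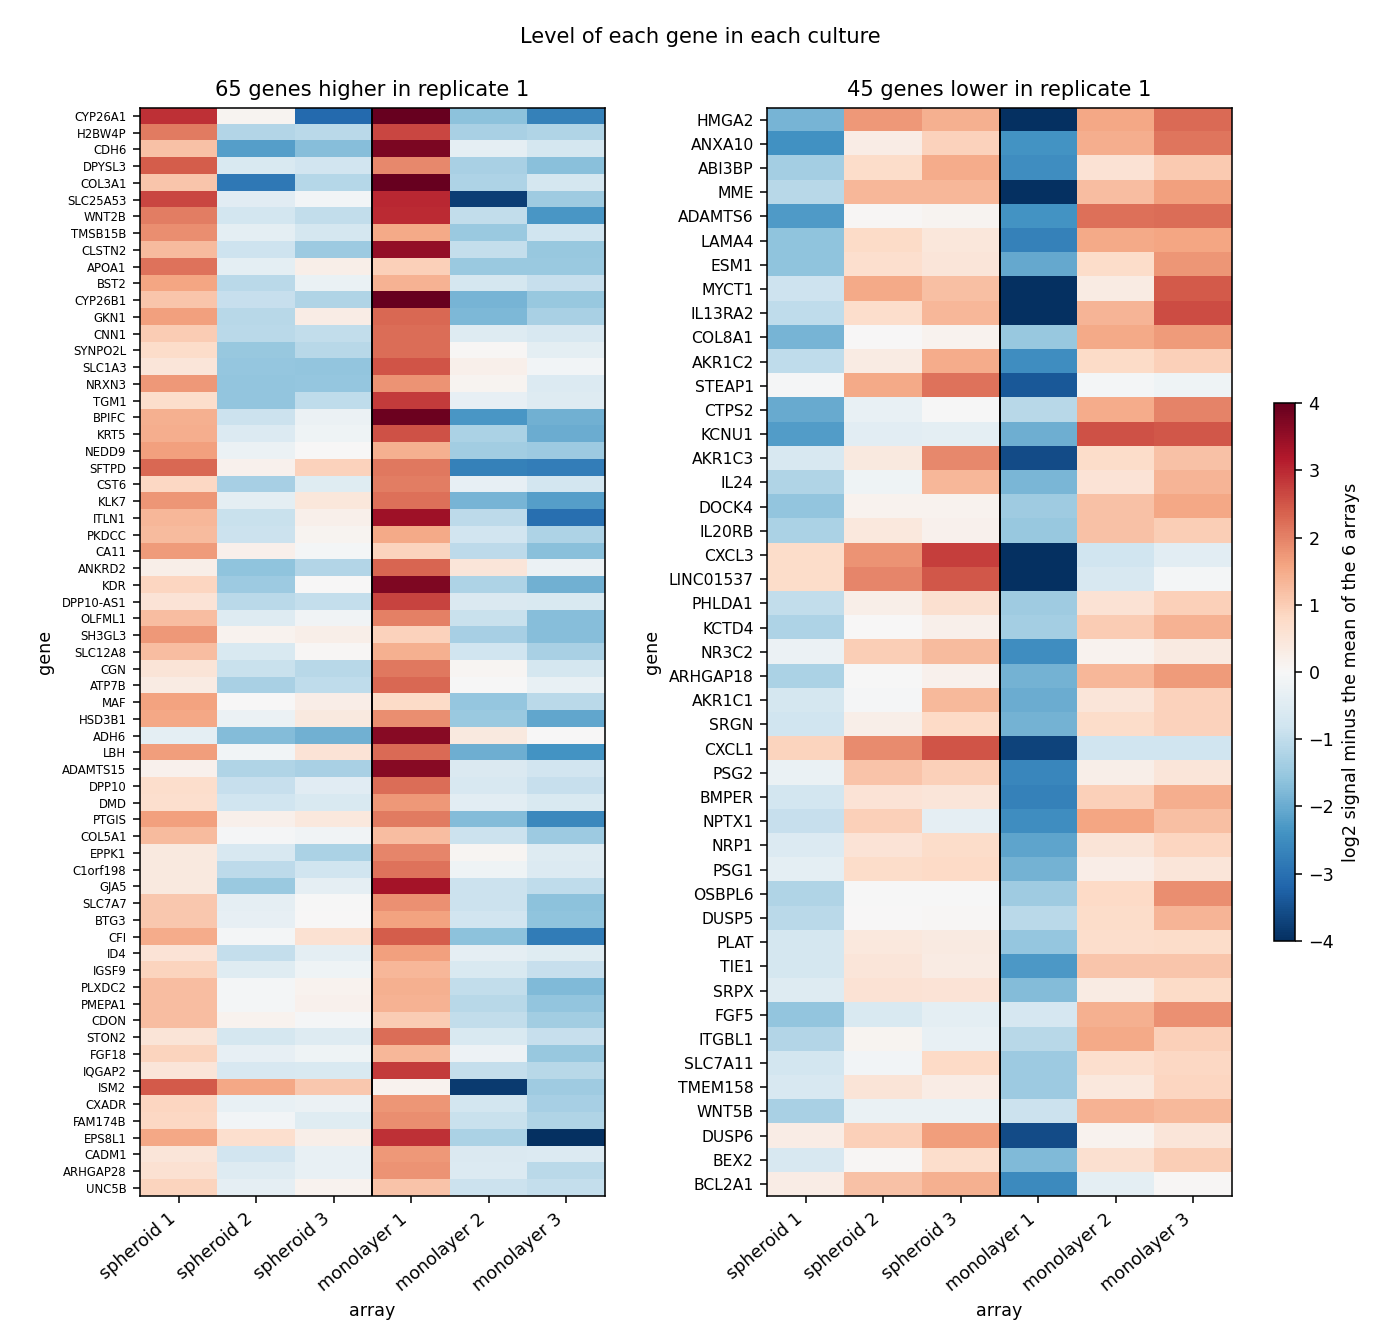
Level of each of the 110 genes (rows) on each of the 6 arrays (columns, spheroids on the left), as log2 signal minus the mean of the 6 arrays, for the 65 genes higher and the 45 genes lower in replicate 1, in the order of the smaller of their shifts. Spheroid 1 and monolayer 1 share a color in most rows, and monolayer 1 often has the deepest color.

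Replicate 1 differed from the other numbers in how many genes met the rule. With replicate 2 in its place the same rule gave 15 genes (5 higher and 10 lower), and with replicate 3 it gave 19 (11 higher and 8 lower). When probe sets were chosen on the monolayers alone, 315 differed by over 2 in monolayer 1, and 297 of them (94.3%) had a shift of the same sign in spheroid 1. Of these 315, 151 were over 1 in spheroid 1 in the same direction and 3 in the opposite one. The corresponding numbers were 32 probe sets with 28 of the same sign (87.5%) for replicate 2 and 82 with 72 (87.8%) for replicate 3. Over probe sets with signal that belong to none of the 110 genes, 61.4% had replicate 1 shifts of the same sign in both kinds of culture. That share covers shifts of any size, so it is not a like baseline for the 315. The selection of the 315 used monolayers only, but by the monolayer threshold of the rule. They include the 151 probe sets that the rule took, so the shares are a description only. The shifts of the 3 numbers share arrays, so these counts are not independent of each other.

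**Figure D2:**
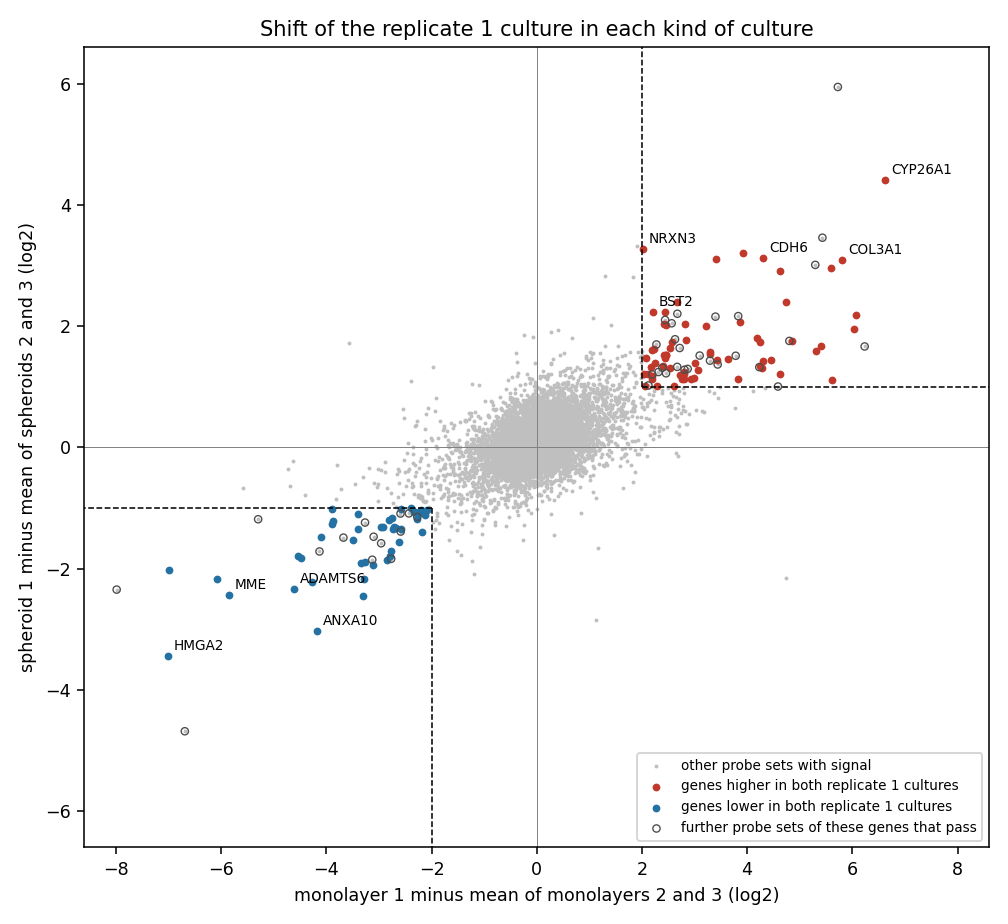
Shift of spheroid 1 from the mean of spheroids 2 and 3 (vertical axis) against the shift of monolayer 1 from the mean of monolayers 2 and 3 (horizontal axis), both on the log2 scale, for 14729 probe sets with signal. Dashed lines are the thresholds of 1 and 2; filled red and blue points are the 65 higher and 45 lower genes, open circles are further probe sets of these genes that pass, and gray points are the rest.

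The controls of the arrays differed little. The median signal was 15.6, 18.0 and 15.2 in spheroids 1, 2 and 3 and 14.7, 14.6 and 14.7 in monolayers 1, 2 and 3. ACTB probe sets at the 3' and 5' ends of the transcript, whose ratio shows RNA integrity, gave ratios of 1.11 in spheroid 1, against 1.18 and 1.23 in spheroids 2 and 3, and of 1.09 in monolayer 1, against 1.09 and 1.11 in monolayers 2 and 3. The hybridization control bioC was at 7.77 in spheroid 1, against 7.75 and 7.81, and at 7.78 in monolayer 1, against 7.52 and 7.50, as log2 signal before centring, and bioB, bioDn and creX were likewise highest in monolayer 1 among the monolayers. Their part in the shifts was not tested. Markers of the labelled cell type were uneven. WT1 had signals of 1811 to 2009 in spheroids and 1347 to 1845 in monolayers, and KRT19 had 5325 to 5820 in spheroids and 4534 to 5152 in monolayers. MUC16, another mesothelial marker, stayed at or under 2.9 on every array, and CALB2, KRT5 and ITLN1 were low in monolayers 2 and 3, with values given further on. The 10 measured markers of squamous and glandular lung epithelium summed to signals of 73 to 94 in spheroids and 100 to 108 in monolayers, each under 100 alone. Whether the replicate 1 cultures differed in passage, density or handling was not tested.

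With each gene read by 1 probe set, HMGA2 had the largest shift among the lower genes in both kinds of culture. Its signal was 88.4 in spheroid 1, against 1238 and 850.0 in spheroids 2 and 3, and 8.85 in monolayer 1, against 882 and 1469 in monolayers 2 and 3. That is 10.9-fold lower in spheroid 1 and 128-fold lower in monolayer 1 than the mean of the other two. The low and the high arrays thus occur in both kinds of culture, and the groups overlap. Whether fewer cells carried HMGA2 RNA or each cell carried less cannot be told apart in RNA of whole cultures. A second HMGA2 probe set gave the same picture, with 1.54 in spheroid 1, against 57.2 and 30.9 in spheroids 2 and 3, and 1.02 in monolayer 1, against 91.9 and 121 in monolayers 2 and 3. Values under 3.11, the 20th percentile of all signals, lie near the bottom of the scale, so a fold against them is not exact. The remaining 7 HMGA2 probe sets stayed under a signal of 100 on every array.

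MME followed with 153 in spheroid 1, against 951 and 811 in spheroids 2 and 3, and 14.4 in monolayer 1, against 723 and 964 in monolayers 2 and 3. Its other probe set read 90.9 in spheroid 1, against 587 and 413, and 1.47 in monolayer 1, against 311 and 446. Both probe sets of MME were therefore low in the same 2 cultures, and in both the spheroid lay above the monolayer among the replicate 1 arrays. Relatives of the 2 genes were read through lists. HMGA1, the other member of the HMGA family, was at 1836 in spheroid 1, against 1957 and 1814, and at 1721 in monolayer 1, against 2144 and 2423. Of 15 measured genes of a list of let-7 and LIN28 targets and oncofetal genes, HMGA2 was the only one of the 110, and the median replicate 1 shift of the list was -0.08 in spheroids and 0.09 in monolayers, beside 0.08 and -0.02 over all 19775 genes. LIN28A and LIN28B, which block let-7 processing, stayed at or under a signal of 8.4 on all arrays. Of 15 measured membrane peptidases MME was likewise the only one of the 110. DPP4, a dipeptidyl peptidase of the cell surface, was at 1176 in spheroid 1, against 1578 and 1585, and at 629 in monolayer 1, against 654 and 725. ANPEP, an aminopeptidase, had shifts of -2.68 and -1.96, but at signals of 0.858 to 30.6.

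**Figure D3:**
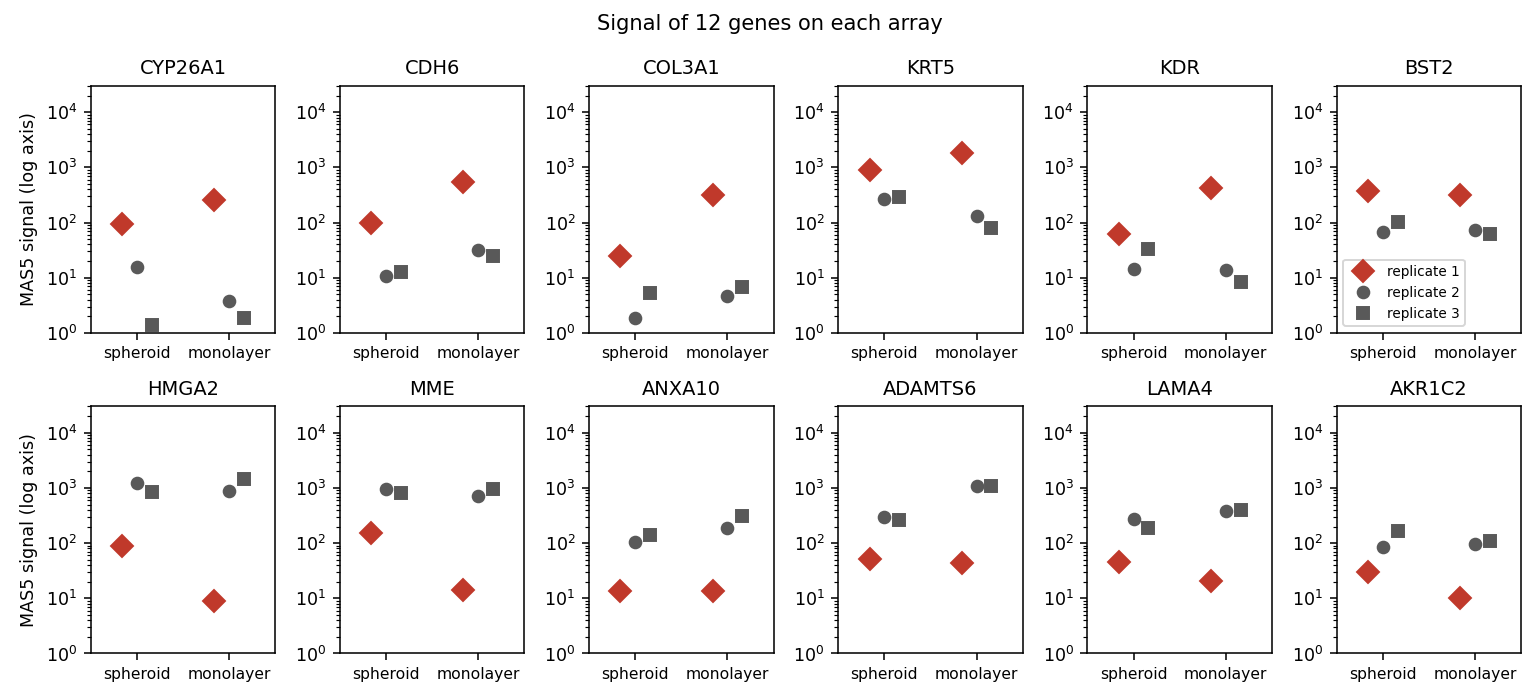
Signal of 12 of the 110 genes on each array (log axis), spheroids left and monolayers right in each panel; diamonds are replicate 1, circles replicate 2 and squares replicate 3. The diamonds lie above the other points in the top 6 panels and below them in the bottom 6.

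Several of the lower genes encode proteins of the extracellular matrix or enzymes that act on it. ADAMTS6, a secreted metalloprotease, had 51.7 in spheroid 1, against 298 and 260.0 in spheroids 2 and 3, and 44.6 in monolayer 1, against 1073 and 1102 in monolayers 2 and 3. LAMA4, a laminin chain of basement membranes, had 46.1, against 278 and 190.0, in spheroids and 20.3, against 383 and 402, in monolayers. COL8A1, a short-chain collagen, had shifts of -1.94 in spheroid 1 and -3.12 in monolayer 1 on the log2 scale, and ABI3BP, a matrix glycoprotein, of -2.46 and -3.31. COL3A1 and COL5A1, both fibrillar collagens, lay among the higher genes, so collagens were found on both sides. Of 16 measured collagens and matrix proteins on a list, 3 were among the 110, COL5A1 on the higher side and COL8A1 and LAMA4 on the lower. Over the list 10 (62.5%) had a positive replicate 1 shift in both kinds of culture and 4 (25.0%) a negative one. Among the genes with signal 38.9% were positive and 22.8% negative in both, and among all 19775 genes 32.0% and 24.8%. The median shift of that list was 0.47 in spheroids and 0.79 in monolayers.

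Among cell surface and cytoplasmic proteins, ANXA10, a member of the annexin family, had 13.8 in spheroid 1, against 104 and 138, and 13.3 in monolayer 1, against 189 and 309. Its levels in the 2 replicate 1 cultures were nearly equal, unlike those of HMGA2 and MME. IL13RA2, a decoy receptor for interleukin 13, had 8.74, against 33.1 and 42.9, in spheroids and 0.511, against 42.5 and 100, in monolayers. The monolayer 1 value is near the bottom of the scale, as was that of MYCT1, a MYC target protein, at 0.927. STEAP1, a membrane-spanning metal reductase relative, had 34.4 in spheroid 1, against 117 and 158, and 3.19 in monolayer 1, against 32.0 and 29.6. ESM1, a proteoglycan secreted by endothelium, had shifts of -2.18 and -3.28, and KCNU1, a potassium channel known from sperm, was at 17.6, against 72.2 and 62.0, in spheroids and 20.2, against 460.0 and 440.0, in monolayers. NRP1, a receptor for semaphorins and VEGF, and TIE1, an endothelial receptor tyrosine kinase, had shifts of -1.20 and -2.80 and of -1.10 and -3.40.

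The aldo-keto reductases AKR1C1, AKR1C2 and AKR1C3, which reduce steroids and other carbonyls, were all lower in replicate 1. AKR1C3 had 101 in spheroid 1, against 235 and 583, and 12.3 in monolayer 1, against 244 and 330.0. AKR1C2 had 29.8, against 86.9 and 163, in spheroids and 10.1, against 95.2 and 110.0, in monolayers. Spheroid 3 was the highest of the spheroids for all 3 genes. The genes are direct neighbors in the RefSeq order of GRCh38.p14 and nearly identical in sequence, so that their probe sets can read each other's transcripts and the values do not count as 3 separate measurements. PSG1 and PSG2, pregnancy-specific glycoproteins of 1 gene cluster with 3 genes between them in that order, are also closely alike in sequence, and had shifts of -1.18 and -1.31 in spheroid 1 and of -2.28 and -2.96 in monolayer 1.

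DUSP6, a phosphatase that switches off the kinase ERK, had 231 in spheroid 1, against 422 and 588, and 14.7 in monolayer 1, against 195 and 250.0. DUSP5, its nuclear relative, had 92.1, against 230.0 and 197, in spheroids and 87.0, against 302 and 477, in monolayers. FGF5, a fibroblast growth factor, had 39.0, against 88.6 and 85.8, in spheroids and 68.6, against 294 and 395, in monolayers. For FGF5 and DUSP5 the replicate 1 arrays were the lowest of the 6, while spheroid 1 of DUSP6 overlapped the monolayers. PHLDA1, a pleckstrin-like protein, was lower at the 3 of its probe sets that passed the rule, with shifts of -1.40 to -1.09 in spheroid 1 and -2.59 to -2.18 in monolayer 1. SLC7A11, the cystine and glutamate exchanger, was lower at all 3 of its probe sets, with shifts of -1.48 to -1.06 and -3.10 to -2.20. PLAT, the tissue plasminogen activator, had 1351 in spheroid 1, against 3440.0 and 2756, and 716 in monolayer 1, against 3365 and 3490.0. Of 17 measured growth factor ligands and receptors on a list, which did not hold FGF18 or KDR, FGF5 was the only one of the 110. In both kinds of culture 8 (47.1%) were positive and 4 (23.5%) negative, beside 38.9% and 22.8% of the genes with signal. The median shifts were 0.26 in spheroids and 0.22 in monolayers. Of 11 measured immediate early and serum response genes on a list, none was among the 110.

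CXCL1 and CXCL3, chemokines that attract neutrophils, were lower in replicate 1 within each kind of culture but higher in every spheroid than in any monolayer. CXCL1 had 1072 in spheroid 1, against 2464 and 3239 in spheroids 2 and 3, and 41.3 in monolayer 1, against 314 and 315 in monolayers 2 and 3. CXCL3 had 765, against 1821 and 3032, in spheroids and 25.2, against 248 and 324, in monolayers. Both genes are known targets of NF-kB, a transcription factor of inflammation, and their promoters are shown because they alone among the promoters of these genes held a match to an NF-kB motif, GGGA and TTTCC with any 1 base between them, searched on both strands. The motif occurred in 0.558% of 35116 RefSeq promoter windows of 300 bases, and in 0.694% of those of genes with signal. Capitals mark the match, which begins 79 bases before the annotated start in both; the sequences are RefSeq's, GRCh38.p14, chr4:73869143-73869442 on the plus strand for CXCL1 and chr4:74038640-74038939 on the minus strand for CXCL3. A match is a description of the letters and not a sign of binding.
CXCL1: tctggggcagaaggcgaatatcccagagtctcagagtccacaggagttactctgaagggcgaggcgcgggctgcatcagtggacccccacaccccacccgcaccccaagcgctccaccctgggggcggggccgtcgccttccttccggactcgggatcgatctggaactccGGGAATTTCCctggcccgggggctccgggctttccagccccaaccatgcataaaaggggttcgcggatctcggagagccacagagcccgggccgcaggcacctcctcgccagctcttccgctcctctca
CXCL3: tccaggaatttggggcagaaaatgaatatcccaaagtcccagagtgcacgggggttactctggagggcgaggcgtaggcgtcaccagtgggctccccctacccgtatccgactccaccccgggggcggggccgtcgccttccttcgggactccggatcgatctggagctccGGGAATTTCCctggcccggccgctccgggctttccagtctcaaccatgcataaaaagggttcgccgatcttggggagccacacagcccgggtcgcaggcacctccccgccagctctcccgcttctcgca

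The rest of the lower genes include more receptors, ligands and enzymes. IL24, a cytokine of the interleukin 10 family, had 37.4 in spheroid 1, against 88.9 and 213, and 23 in monolayer 1, against 120.0 and 211, and IL20RB, a receptor chain for the interleukin 20 group, had shifts of -1.56 and -2.61. BMPER, which binds bone morphogenetic proteins, had 89.1, against 254 and 204, in spheroids and 21.7, against 270.0 and 390.0, in monolayers. WNT5B, a WNT ligand, had 91.2, against 218 and 182, and 118, against 559 and 524. WNT2B lay on the other side, and likewise FGF5 was lower and FGF18 higher. NR3C2, the mineralocorticoid receptor, had 68.9, against 185 and 189, in spheroids and 13.6, against 84.7 and 97.9, in monolayers. BCL2A1, an antiapoptotic relative of BCL2, had 240.0, against 515 and 506, and 31.2, against 141 and 191. Like CXCL1 and CXCL3 it was higher in every spheroid than in any monolayer, as was the long noncoding RNA LINC01537, with 39.6, against 106 and 132, and 1.03, against 14.5 and 21.3. SRGN, the core protein of an intracellular proteoglycan, had shifts of -1.32 and -2.71, and CTPS2, an enzyme of CTP synthesis, of -1.86 and -2.84.

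Ordered by the smaller of its 2 shifts, with each gene read by 1 probe set, CYP26A1 was the first of the genes higher in replicate 1, with 4.41 in spheroid 1 and 6.62 in monolayer 1. CYP26A1 and CYP26B1 are cytochrome P450 enzymes that break down retinoic acid, and CYP26A1 is itself induced by retinoic acid in many cells. CYP26A1 had 94.2 in spheroid 1, against 15.8 and 1.40 in spheroids 2 and 3, and 256 in monolayer 1, against 3.73 and 1.82 in monolayers 2 and 3. The values of spheroid 3 and monolayer 3 lie under the 20th percentile, and spheroids 2 and 3 differed by 3.24 log2 units. The folds of CYP26A1 and its place in the order are therefore not exact. At 1 probe set CDH6 had a larger shift in spheroid 1, of 5.95, also against values under that percentile. CYP26B1 had 107, against 29.9 and 20.9, in spheroids and 967, against 12.7 and 16.3, in monolayers. Monolayer 1 was the highest array for both enzymes. The promoter of CYP26A1 is shown because it holds a match to a strict form of the DR5 motif of retinoic acid receptors. This form, a pair of AGTTCA repeats with 5 bases between them, was searched on both strands. This form occurred in 0.0114% of the RefSeq promoter windows, 4 of 35116, and in no other window of the 82 of these genes that had one. Other forms of DR5 were not searched, so windows without a match can still hold one. The match and its rarity describe the letters only. The match, in capitals and read here from the opposite strand, begins 90 bases before the annotated start; the window is chr10:93073643-93073942 on the plus strand of GRCh38.p14.
CYP26A1: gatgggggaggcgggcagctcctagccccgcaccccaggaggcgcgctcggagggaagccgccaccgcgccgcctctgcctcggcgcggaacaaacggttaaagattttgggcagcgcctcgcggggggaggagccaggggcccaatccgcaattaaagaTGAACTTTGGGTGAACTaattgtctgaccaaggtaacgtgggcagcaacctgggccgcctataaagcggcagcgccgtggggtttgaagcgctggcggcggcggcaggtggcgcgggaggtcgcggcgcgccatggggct

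CDH6, a cadherin of kidney and fetal tissue, had 97.0 in spheroid 1, against 10.7 and 12.9, and 554 in monolayer 1, against 31.4 and 25.2. All 5 of its probe sets with signal passed the rule, with shifts of 1.37 to 5.95 in spheroid 1 and 3.29 to 5.72 in monolayer 1. The shift of 5.95 was read against 2.88 and 0.894 in spheroids 2 and 3, both under 3.11, so it is not exact. Another of these probe sets, with a shift of 3.01, had 0.492 in spheroid 2. DPYSL3, a cytoskeletal protein of growing axons, had 608, against 86.1 and 64.6, in spheroids and 403, against 43.1 and 33.3, in monolayers. CLSTN2, a calsyntenin of synaptic membranes, had 142, against 38.7 and 21.1, in spheroids and 636, against 29.1 and 19.8, in monolayers. DPYSL3 was higher in spheroid 1 than in monolayer 1, whereas CDH6 and CLSTN2 were higher in monolayer 1. NRXN3, a neurexin, had 269, against 31.8 and 27.5, in spheroids and 267, against 82.8 and 53.0, in monolayers. Of 15 measured genes on a list of neural adhesion and guidance genes only NRP1, a lower gene, was among the 110. The list did not hold DPYSL3, CLSTN2 or NRXN3. In both kinds of culture 8 (53.3%) were positive and 2 (13.3%) negative, beside 38.9% and 22.8% of the genes with signal.

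WNT2B, a secreted WNT ligand, had 656 in spheroid 1, against 111 and 78.5, and 1171 in monolayer 1, against 75.0 and 29.9. It passed the rule at 3 probe sets, and FGF18, another secreted growth factor, at 4, with shifts of 1.13 to 1.31 in spheroid 1 and 2.19 to 2.46 in monolayer 1. ID4, an inhibitor of helix-loop-helix transcription factors, and PLXDC2, a plexin-domain membrane protein, passed at 3 probe sets each. COL3A1, a collagen typical of fibroblasts, had 24.8, against 1.84 and 5.18, in spheroids and 313, against 4.67 and 6.67, in monolayers. Its spheroid signals were low, with spheroid 2 under 3.11, so the fold in spheroids is not exact. A second passing probe set had 15.1 in spheroid 1, against 1.87 and 1.14. Its probe sets that did not pass, at signals of 45.1 or less, were not higher in spheroid 1. In monolayer 1 they had shifts of 3.41, -1.5 and 1.57. Of 12 measured fibroblast markers COL3A1 was the only one of the 110, and the summed signal of the 12 was 3098 in spheroid 1, against 3516 and 3072, and 2591 in monolayer 1, against 3566 and 3398. Of the 12, 4 were positive and 4 negative in both kinds of culture (33.3% each), beside 38.9% and 22.8% of the genes with signal. The sum is dominated by the brightest probe sets.

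APOA1, the main protein of high-density lipoprotein, had 325 in spheroid 1, against 64.6 and 84.4, and 132 in monolayer 1, against 24.3 and 24.7. BST2, or tetherin, an interferon-induced protein that holds virus particles at the cell surface, had 370.0, against 68.7 and 101, in spheroids and 310.0, against 72.0 and 62.3, in monolayers. In both, spheroid 1 was above monolayer 1, which on centred values was so for 12 of the 65 higher genes. The histone H2B pseudogene H2BW4P had 482, against 58.4 and 52.8, and 685, against 43.8 and 46.4. TMSB15B, a thymosin that binds actin, and SLC25A53, a mitochondrial carrier, were also higher in replicate 1, with shifts of 2.41 and 2.95 in spheroid 1 and 2.67 and 5.60 in monolayer 1. In the RefSeq order TMSB15B is the direct neighbor of H2BW4P on chromosome X, and 3 genes separate H2BW4P from SLC25A53. Whether 1 transcript crosses these neighbors was not tested.

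KRT5 and ITLN1, both mesothelial markers, were among the higher genes. KRT5, a keratin of mesothelial and basal epithelial cells, had 910.0 in spheroid 1, against 267 and 290.0, and 1845 in monolayer 1, against 130.0 and 79.3. ITLN1, a lectin secreted by mesothelium, had 63.7, against 15.8 and 28.7, in spheroids and 249, against 11.5 and 2.97, in monolayers. Of 12 measured mesothelial genes, 11 had a positive replicate 1 shift in both kinds of culture, beside 38.9% of the genes with signal and 32.0% of all 19775 genes, and without the 2 chosen genes 9 of 10 did. The median shift of the list was 0.34 in spheroids and 1.10 in monolayers. CALB2, or calretinin, was the nearest of the others, with 2238, against 1317 and 1765, in spheroids and 1582, against 163 and 83.6, in monolayers, but its shift of 0.64 in spheroid 1 did not meet the rule. Of 10 measured proliferation genes 9 were likewise positive in both, with medians of 0.49 and 0.15. BNC1 was the exception among the mesothelial genes, with shifts of 0.10 and -0.14.

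Other epithelial and secreted proteins were higher as well. KLK7, a kallikrein protease, had 261 in spheroid 1, against 67.8 and 103, and 335 in monolayer 1, against 19.9 and 15.6. SFTPD, surfactant protein D, had 370.0, against 98.2 and 139, in spheroids and 305, against 10.9 and 10.4, in monolayers. HSD3B1, an enzyme of steroid hormone synthesis, had 3780.0, against 1286 and 1653, in spheroids and 4388, against 431 and 292, in monolayers. In all 3 the replicate 1 arrays were within 0.45 log2 units of each other, while monolayers 2 and 3 lay below spheroids 2 and 3. CFI, complement factor I, and PTGIS, prostacyclin synthase, showed the same order, with shifts of 1.22 and 1.35 in spheroid 1 and 4.63 and 4.24 in monolayer 1. KDR, the main VEGF receptor of endothelium, had 61.2, against 14.4 and 32.9, and 422, against 13.6 and 8.35. Of 8 measured endothelial markers, 1 (KDR) thus met the rule as higher and 1 (TIE1) as lower in replicate 1. By sign alone 3 of the 8 were positive and 3 negative in both kinds of culture (37.5% each), beside 38.9% and 22.8% of the genes with signal. The 9 measured leukocyte markers summed to 187 to 218 in spheroids and 135 to 161 in monolayers, and none was among the 110.

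Further higher genes belong to the cytoskeleton, to junctions and to transport. CNN1, a calponin of smooth muscle, had 549 in spheroid 1, against 150.0 and 135, and 1210.0 in monolayer 1, against 180.0 and 165. DMD, or dystrophin, and SYNPO2L, an actin-bundling protein of muscle, had shifts of 1.38 and 2.03 in spheroid 1 and 2.24 and 2.42 in monolayer 1. TGM1, the transglutaminase of cornified epithelium, had 266, against 63.3 and 78.5, in spheroids and 1071, against 122 and 108, in monolayers, and CGN, the tight junction protein cingulin, had shifts of 1.52 and 2.41. SLC1A3, a glutamate transporter, had 641, against 185 and 152, and 2482, against 500.0 and 407. For SLC1A3 the spheroid was below the monolayer in all 3 replicate numbers, by differences of -2.04, -1.74 and -1.47. ATP7B, a copper pump, had 283, against 107 and 109, and 1046, against 213 and 175. MAF, a transcription factor, had 520.0, against 200 and 200, in spheroids and 275, against 55.2 and 76.1, in monolayers, and NEDD9, a scaffold protein of focal adhesions, had 411, against 129 and 128, and 328, against 46.7 and 45.3. In MAF and NEDD9 the spheroid was above the monolayer in all 3 numbers, so the shared shift of replicate 1 occurred with either order of the cultures.

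Genes with several probe sets give a second reading of the same transcript. Of the 110 genes 31 passed with more than 1 probe set and 7 with at least 3, namely CDH6, FGF18, WNT2B, ID4, PLXDC2, PHLDA1 and SLC7A11. The probe sets that did not pass numbered 118, from 59 genes, and 86 of them were shifted in the direction of their gene in both kinds of culture. With a signal of 100 or more on at least 1 array this held for 36 of 36 probe sets of 24 genes. Their median shifts toward the direction of the gene were 0.80 in spheroid 1 and 2.07 in monolayer 1. Among the genes with signal 38.9% were positive and 22.8% negative in both kinds of culture. Over probe sets of other genes 61.4% had the same sign in both, counting either direction. Neither is a like baseline, because the 36 belong to genes chosen on the same arrays. CADM1, a cell adhesion molecule, is 1 case among the 36: its brightest probe set outside the rule was shifted by 0.73 in spheroid 1 and 1.99 in monolayer 1. BTG3, an antiproliferative protein, is the opposite case. Its 2 brightest probe sets, with signals of 1375 to 2243, were shifted by 0.03 to 0.12 only. The probe set that passed, with signals up to 368, was shifted by 1.24 and 2.80. Both of the brightest count among the 36, since that count asks only for the sign. The neighbor of BTG3 in the RefSeq order, CXADR, was also higher in replicate 1. Dim probe sets of these genes followed their gene's direction in 50 of 82 cases.

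The thresholds cut through a continuous range. Just inside the monolayer threshold lay NRXN3, ID4 and UNC5B, with shifts of 2.01, 2.04 and 2.07, and just outside lay CRISPLD1, COL4A1 and KLK5, at 2.0, 2.0 and 1.99. Just inside the spheroid threshold lay BCL2A1, ARHGAP28 and UNC5B, with shifts of -1.0, 1.01 and 1.01, and just outside lay KLK10, SEMA5A and HMOX1, at 1.0, 0.99 and -0.99. COL4A1, a basement membrane collagen, and KLK5 and KLK10, kallikreins like KLK7, thus missed the rule narrowly, with values that round to the threshold or lie just under it.

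The 110 genes were spread over 23 chromosomes. Chromosome 10 held 12 of them (10.9%), beside 4.0% of the genes with signal, and 3 of the 12 are the AKR1C genes. Chromosome 4 held 9 (8.18%), beside 3.84%. On chromosome X there were 8 (7.27%), beside 3.01%, among them the near neighbors TMSB15B, H2BW4P and SLC25A53. Chromosomes 16 and 17 held 1 each (0.909%), beside 4.5% and 5.79%. Promoter windows from RefSeq were matched for 82 of the 110 genes, and a gene with several starts has several windows. The median count of CpG pairs in a window was 10 for the higher genes and 16 for the lower genes, beside 26 for the genes with signal and 14 for all windows, and the median GC content was 57.7% and 61.3%, beside 65.0% and 58.7%. A TATAAA sequence on either strand was found in 12% of the windows of the higher genes and 20% of those of the lower genes, beside 6.03% for the genes with signal and 11.5% for all windows. The AP-1 motif TGANTCA was found in 7.61% and 2.22%, beside 5.30% and 7.71%.

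Because the shifts of replicate 1 were larger in monolayers, the difference between spheroid and monolayer depended on the replicate number. For the 65 higher genes the median difference, spheroid minus monolayer, was -0.93 in replicate 1, 0.25 in replicate 2 and 0.91 in replicate 3, and the spheroid was above the monolayer for 12, 39 and 48 of them. For the 45 lower genes it was 1.12, -0.50 and -0.56, with 36, 16 and 13 higher in the spheroid. In 58 of the 110 genes the difference in replicate 1 had the opposite sign from the mean difference of replicates 2 and 3. HMGA2 differed by 3.23 in replicate 1, 0.18 in replicate 2 and -0.83 in replicate 3, and MME by 3.33, 0.09 and -0.29. The separation of the 2 sets in such a comparison follows by arithmetic wherever the monolayer shift is the larger one, which was so for all but NRXN3 and BST2, and no test was made of it.

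**Figure D4:**
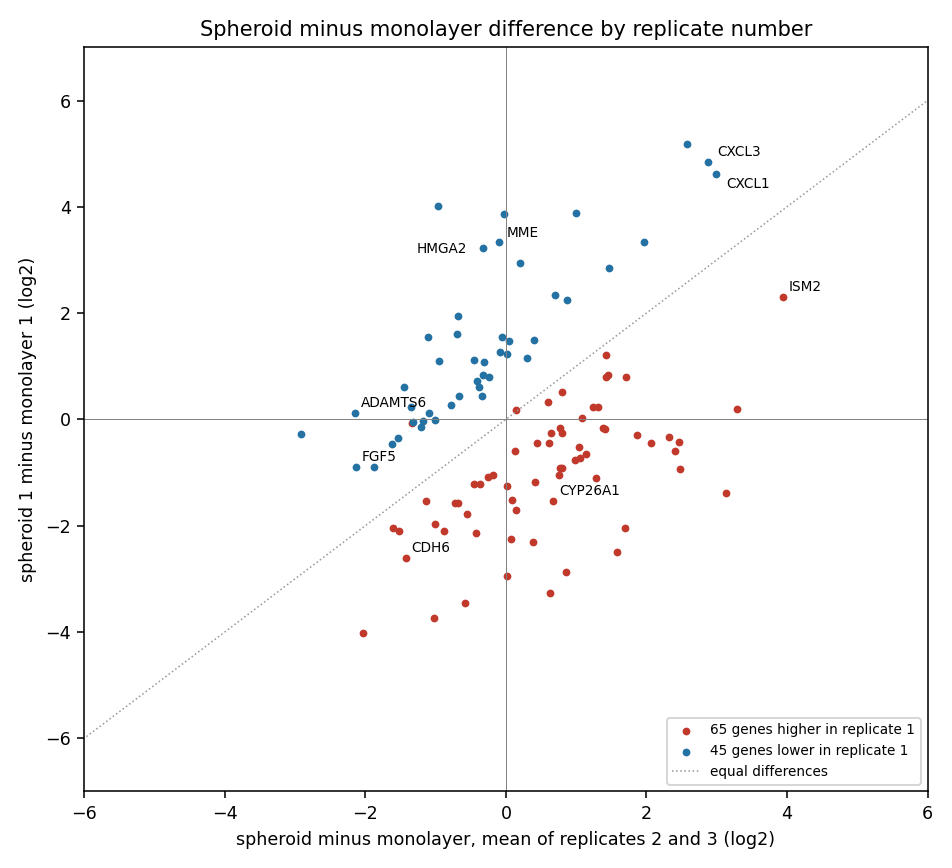
Difference spheroid 1 minus monolayer 1 (vertical axis) against the mean difference of replicates 2 and 3 (horizontal axis), both on the log2 scale, for the 65 genes higher and the 45 genes lower in replicate 1; the dotted line marks equal differences. Genes with the larger shift in monolayer 1 lie below the line if higher and above it if lower, by arithmetic; NRXN3 and BST2 are the 2 exceptions among the higher genes.

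Spheroids and monolayers were compared by limma, a linear model with moderated variances, across 54613 probe sets, with Benjamini-Hochberg adjusted p under 0.05 as the threshold. Of the 110 genes 3 passed (2.73%), all higher in spheroids, where 9.43% of all probe sets passed (2.78% higher and 6.65% lower) and 25.5% of the genes with signal. At an unadjusted p under 0.05 limma gave 10 of the 110 genes, 6 higher and 4 lower, beside 12292 of the 54613 probe sets. CXCL1 was higher in spheroids, with a log2 difference of 3.53 and a standard error of 0.73 (adjusted p = 0.0176 by limma), and so was CXCL3, with 3.53 and 0.88 (adjusted p = 0.0367 by limma). The third was ISM2, the secreted protein isthmin 2, with 203, 126 and 77.3 in spheroids 1, 2 and 3 and 38.8, 2.48 and 13.1 in monolayers 1, 2 and 3, a difference of 3.39 (standard error 0.84, adjusted p = 0.0363 by limma). In these 3 genes every spheroid was above every monolayer. None of the 3 passed without spheroid 2 (adjusted p = 0.0856, 0.134 and 0.125 by limma) or without spheroid 3 (adjusted p = 0.0818, 0.143 and 0.0854 by limma). CXCL3 also lost its call without monolayer 2 (adjusted p = 0.0573 by limma) and with a floor at the 20th percentile (adjusted p = 0.0640 by limma). ISM2 lost its call with that floor (adjusted p = 0.0547 by limma), without monolayer 3 (adjusted p = 0.0819 by limma) and without spheroid 1 (adjusted p = 0.120 by limma). Without monolayer 1 the differences of CXCL1, CXCL3 and ISM2 were 2.56, 2.37 and 4.32, and without monolayer 2 that of ISM2 was 2.33. HMGA2 differed by 0.86 (standard error 1.74, adjusted p = 0.835 by limma) and MME by 1.04 (standard error 1.41, adjusted p = 0.741 by limma). The rule chose genes whose arrays differ within a group, and that spread enters the test: the median standard error was 0.77 for the 110 genes and 0.44 over all probe sets. The rule also enters the differences, because it asked for a larger shift in monolayer 1 than in spheroid 1. That raises spheroid minus monolayer in lower genes, such as CXCL1 and CXCL3, and reduces it in higher genes. The calls on all 6 arrays thus draw on values that the rule used. Without the trend between mean and variance limma called none of the 110, and the methods' t-test called none. At an unadjusted p under 0.05 limma without the trend gave 6 of the 110, beside 10587 of all probe sets. The methods' t-test gave 2, beside 10731.

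Without both replicate 1 arrays, on 2 spheroids and 2 monolayers, limma called 55 of the 110 genes (50.0%), 31 higher and 24 lower in spheroids, where 12.1% of all probe sets passed (3.75% higher and 8.39% lower) and 31.6% of the genes with signal. The median standard error of the 110 genes was then 0.24, and 0.50 over all probe sets. These calls rest on the trend, because without it limma called 0 of the 110 and 0 of 54613 probe sets, with 47 and 9625 at an unadjusted p under 0.05, and the methods' t-test called 0 of either, with 39 and 8791. The genes with the smallest adjusted p were read out after these values were seen. KCNU1 was lower in spheroids, with a difference of -2.92 (standard error 0.15, adjusted p = 2.79e-05 by limma), and ADAMTS6 with -2.14 (standard error 0.15, adjusted p = 7.31e-05 by limma), and CXCL1 was higher by 2.99 (standard error 0.21, adjusted p = 9.41e-05 by limma). FGF5 differed by -2.14 (adjusted p = 1.76e-04 by limma), WNT5B by -1.62 (adjusted p = 2.03e-04 by limma), and SFTPD by 3.29 (adjusted p = 2.84e-04 by limma). HMGA2 and MME again did not pass, at -0.33 (standard error 0.24, adjusted p = 0.473 by limma) and -0.10 (standard error 0.18, adjusted p = 0.810 by limma). KRT5 was higher in spheroids by 1.28 (standard error 0.24, adjusted p = 0.00728 by limma), and LAMA4 and COL8A1 were lower, with differences of -0.95 and -1.53 (adjusted p = 0.00436 and 5.55e-04 by limma). Among the lists, 5 of 12 mesothelial genes were higher and 1 lower without replicate 1, against 1 and 0 with all arrays, and 3 of 16 collagens and matrix proteins were higher and 4 lower, against 2 and 1.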

How the data were processed

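Total RNA of 3 spheroid and 3 monolayer cultures was read on 1 array each. The authors deposited MAS5 signal intensities, linear values per probe set, with each array scaled to a trimmed mean of 150.0 without the highest and lowest 2% of probe sets. Without detection calls the background is not known, and precision is limited by having 3 arrays per group. Scan dates and batches are not given in the sources used here.

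Signals were transformed to log2 without a pseudocount and centred on each array's median (Python 3.11.15, pandas 2.3.3, numpy 2.4.6, scipy 1.17.1). Of 54675 probe sets, 62 controls were left out. A 2016 platform annotation gives 1 symbol to 41097 probe sets, several to 1801 and none to 11777, and 41043 matched RefSeq by gene ID. Where several probe sets of a gene met the rule, the one with the highest mean level stands for it, and likewise among all probe sets for list genes. Spheroids and monolayers were compared by limma 3.58.1 under R 4.3.3 with a mean-variance trend, all 6 arrays and no covariate, with Benjamini-Hochberg adjustment over 54613 probe sets. The pipeline was tested on simulated data. P-values of limma set a difference against the spread between these cultures of 1 cell line. That spread is moderated toward the trend over probe sets of similar level.

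The genes and lists were chosen with earlier results of these data known. Named by rule were HMGA2 and MME, the 12 genes with the largest smaller shift in each direction, those called by limma, those with at least 3 passing probe sets, those nearest a threshold and those of the lists; other genes were named after their values were seen. Alternatives were other signal minimums, a floor at the 20th percentile, no centring, quantile normalization, 1 probe set per gene, only probe sets above the median, no trend, the methods' t-test, a replicate block and leaving out arrays. Added after seeing the values were exchanged thresholds and 2 tests without replicate 1.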

Additional observations from a re-analysis of the deposited data

How the results depend on the processing

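The rule gave 110 genes without centring (63 higher, 47 lower) and 101 to 122 when 1 array of replicates 2 and 3 was left out. It gave 617 (282 higher, 335 lower) without the signal minimum, and 32 (22 and 10) with the thresholds exchanged, of which 29 were among the 110.

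Between spheroids and monolayers, values without centring and quantile normalization raised the probe sets called higher to 2561 and 2455. Without the trend limma called 457 (176 higher, 281 lower) and the methods' t-test 1241 (267 and 974), and both called 0 of the 110 genes. With both replicate 1 arrays left out, limma without the trend and the methods' t-test called 0 probe sets, higher or lower, and 0 of the 110 genes, where limma with the trend called 55 (31 higher, 24 lower). Leaving out 1 array gave 2438 (without monolayer 2) to 6577 (without monolayer 1) probe sets, 632 to 2263 higher and 1612 to 4314 lower, and 0 (without spheroid 2 or 3) to 38 (without monolayer 1) of the 110, 0 to 26 higher and 0 to 12 lower. Of the 110, limma called 1 higher with a floor at the 20th percentile and 5 higher among probe sets above the median. TIE1 was at -0.69 (adjusted p = 0.0173 by limma) without replicate 1, against 0.07, which did not pass, with all arrays. For 43 named genes, 77 of 600 alternative values changed sign with neither value past the threshold.

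The labels give both groups the numbers 1 to 3. Over all probe sets the deviations of same-numbered arrays correlated at 0.091, -0.013 and 0.022, and above the median level at 0.423, 0.095 and 0.217. Above that level but without the 110 genes the values were 0.343, 0.043 and 0.168. Above the median level spheroid 2 correlated at 0.264 with monolayer 3, more than with monolayer 2. The numbers were therefore not taken as pairs. With a replicate block limma called 6133 probe sets and 35 of the 110 genes (17 higher, 18 lower). The chosen shift is shared within number 1, so the block takes it up by construction. The median difference of the higher genes, 0.21, moved between -0.44 and 1.19 when 1 array was left out, and that of the lower genes, 0.08, between -0.91 and 0.61.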
